A study of Homo sapiens with 12 samples.

Results

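Long noncoding RNA genes were defined by their symbols, as those that began with LINC and digits or ended in -AS1, -AS2, -IT1 or -DT. Each gene was represented by its probe set with exactly 1 symbol and the highest mean log2 signal over the 12 arrays, and a gene was kept where the mean deposited log2 signal over the 6 arrays of either line was 8 or more. The rule kept 231 genes of 1822 with such a symbol and of 19775 genes measured in all. They comprised 57 genes with LINC symbols, a name given mostly to intergenic RNAs, 120 antisense genes (-AS1 or -AS2), 49 divergent transcripts (-DT) and 5 intronic transcripts (-IT1). RefSeq listed 229 of the 231, of which 227 were typed there as lncRNA and 2 as antisense RNA. Just inside the threshold were NDUFB2-AS1 in Pfeiffer (8.006) and PIK3IP1-DT and TTN-AS1 in OCI-Ly7 (8.014 and 8.015). Just outside it were LINC01588 in Pfeiffer (7.992) and MORF4L2-AS1 and DOCK9-DT in OCI-Ly7 (7.988 and 7.991).

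The study knocked down BCL6 in OCI-Ly7 and Pfeiffer, established cell lines of germinal centre B cell-like diffuse large B cell lymphoma (GCB-DLBCL). The 4 groups were Pfeiffer with BCL6 siRNA, Pfeiffer with control siRNA, OCI-Ly7 with BCL6 siRNA and OCI-Ly7 with control siRNA, with 3 arrays each. RNA was taken 48 h after transient transfection, from cells grown in IMDM with 10% FBS, and hybridised to Affymetrix U133 Plus 2.0 arrays, on which each gene is read by sets of short probes. The titles and source names of the Pfeiffer control samples say shRNA where their descriptions say siRNA, and they are called control siRNA here. If they were shRNA, changes in Pfeiffer and differences between the lines could not be told apart from the kind of control. Each line is a single transformed line, and the labels do not say that replicates came from separate cultures, so the spread that p-values are set against may be that of the technique.

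Long noncoding RNAs are transcripts without a long reading frame. Some are transcribed from the strand opposite a protein-coding gene (antisense), some start beside a coding gene's promoter and run the other way (divergent), and some lie between genes (intergenic). A few act on the gene next to them, others act elsewhere in the cell, and for most no function is established. BCL6 is the transcriptional repressor that holds germinal centre B cells in their state, and it recruits corepressors to its target genes.

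Median signals of the arrays, which had been scaled to 1 trimmed mean, lay between 71.3 and 85.0, and arrays of 1 group correlated at 0.916 to 0.924 over the 54675 probe sets. BCL6 itself fell in both lines, by 0.96 ± 0.08 (SE) on the log2 scale in Pfeiffer and by 0.42 ± 0.08 in OCI-Ly7 (limma, adjusted p = 5.19e-07 and 0.00724). The change was larger in Pfeiffer, with a difference of -0.54 ± 0.11 between the lines (limma, adjusted p = 0.00496). The B cell genes MS4A1, CD79B and PAX5 had log2(signal + 16) values of 11.62 or above on every array. CD79A and CD22 ranged from 10.03 to 13.76 and from 7.91 to 12.11, and T cell, NK cell and myeloid markers lay at 7.58 or below. EPCAM, an epithelial adhesion molecule, read 13.87 with BCL6 siRNA and 14.06 with control siRNA in Pfeiffer, against 4.98 and 5.00 in OCI-Ly7. The other epithelial markers listed were far dimmer than EPCAM in Pfeiffer. KRT8 read 7.87 and 7.78 there, against 6.97 and 7.36 in OCI-Ly7, and KRT18 8.6 and 8.66, against 6.59 and 6.78.

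The noncoding genes gave modest signals, and they gave them unequally in the lines. Their median deposited log2 signal in the brighter line was 9.06, against 10.43 for the 9888 genes tested. Of the 231, 119 were at 8 or more in both lines, 26 in Pfeiffer alone and 86 in OCI-Ly7 alone. The median difference in level, Pfeiffer minus OCI-Ly7, was -0.59 over the 231 genes and 0.06 over all genes tested. In the LINC class that median was 0.05, among the antisense genes -0.73, among the divergent transcripts -0.51 and among the intronic transcripts -1.89. A difference beyond 1 log2 unit was seen in 31 genes in favour of Pfeiffer and in 84 in favour of OCI-Ly7. These levels chose the genes and are given as a description, with no test. Signals of different probe sets are not amounts of RNA on 1 scale, so they place no gene above another.

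**Figure D1:**
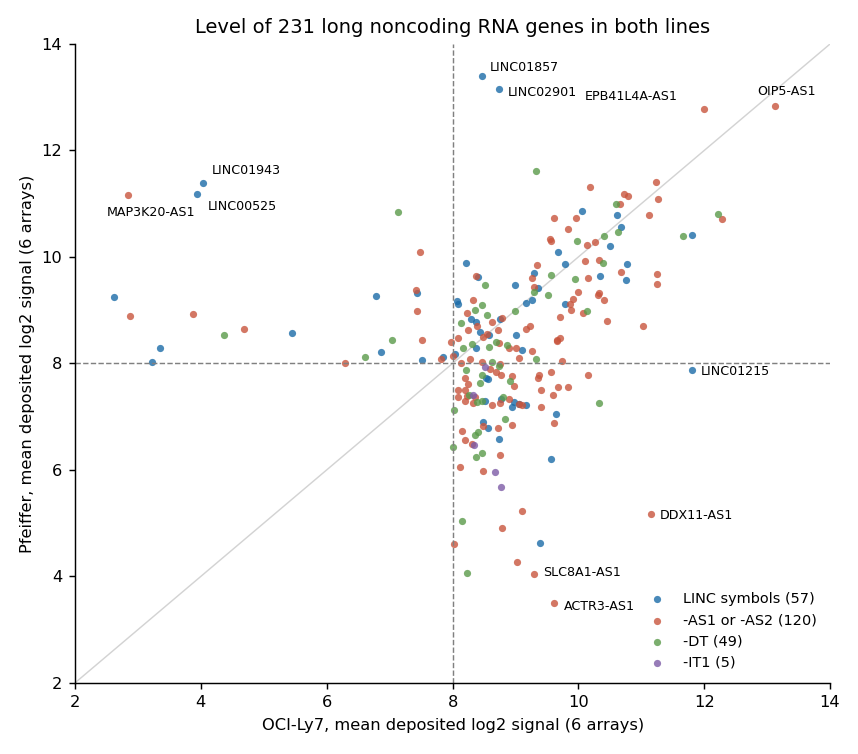
Mean deposited log2 signal of the 231 long noncoding RNA genes in Pfeiffer (vertical axis, 6 arrays) and OCI-Ly7 (horizontal axis, 6 arrays), coloured by class, with dashed lines at the threshold of 8 and a diagonal of equal level. The points in the upper left are bright in Pfeiffer and dim in OCI-Ly7, such as MAP3K20-AS1 at 11.17 and 2.84, and those in the lower right are the reverse, such as DDX11-AS1 at 5.17 and 11.15.

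The 6 noncoding genes with the highest signals in each line were taken by name. Among them were LINC01857 (13.39) and LINC02901 (13.16) in Pfeiffer and LINC01215 (11.80) in OCI-Ly7, whose changes are described with the called genes. The antisense gene OIP5-AS1, also called Cyrano and known for promoting the decay of a microRNA, had mean deposited log2 signals of 12.83 in Pfeiffer and 13.13 in OCI-Ly7. EPB41L4A-AS1, which hosts a small nucleolar RNA, had 12.78 in Pfeiffer and 11.99 in OCI-Ly7. C2orf74-DT had 11.61 in Pfeiffer, and MAPKAPK5-AS1 had 11.41. THAP9-AS1 had 12.29 in OCI-Ly7, MAP3K2-DT had 12.22 and LINC00938 had 11.81. Except for EPB41L4A-AS1 and MAP3K2-DT in Pfeiffer, none of the other 7 genes was called in either line, and OIP5-AS1 differed by 0.13 ± 0.06 (SE) in both (limma, adjusted p = 0.19 in Pfeiffer and 0.321 in OCI-Ly7).

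The widest gaps in level were of the kind where a gene was bright in 1 line and close to the dimmest signals in the other. MAP3K20-AS1 averaged 11.17 in Pfeiffer and 2.84 in OCI-Ly7, LINC00525 11.18 and 3.94, and LINC01943 11.39 and 4.03. LINC00954 averaged 9.24 in Pfeiffer and 2.62 in OCI-Ly7, and ZNF793-AS1 8.89 and 2.87. In the other direction, ACTR3-AS1 averaged 3.50 in Pfeiffer and 9.62 in OCI-Ly7, and DDX11-AS1, an RNA reported to act in sister chromatid cohesion, 5.17 and 11.15. SLC8A1-AS1 averaged 4.04 in Pfeiffer and 9.30 in OCI-Ly7, DBH-AS1 4.26 and 9.03, and LINC00324 4.63 and 9.39. The dim values were not shown to be above background, so the size of these gaps is not exact.

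The change after BCL6 siRNA was tested. It was not a criterion of the rule, which used the mean level over the BCL6 siRNA and control arrays of a line together. The choice was still not independent of it, since the BCL6 siRNA arrays contributed to that level. The genes were also chosen with earlier results of these data known. Values were taken as log2(signal + 16), a scale that makes changes of dim genes look smaller, and limma was fitted over all 12 arrays and 9888 genes, with Benjamini-Hochberg adjustment over all of them. All 231 noncoding genes were among the genes tested. A gene is called where its adjusted p is under 0.05. In Pfeiffer 23 of the 231 were called (9.96%), 8 higher and 15 lower, against 16.3% of all genes tested, of which 7.92% were higher and 8.35% lower. In OCI-Ly7 4 of the 231 were called (1.73%), 1 higher and 3 lower, against 2.67% of all genes tested, of which 1.69% were higher and 0.981% lower. The BCL6 siRNA and control arrays did not overlap in 61 of the 231 genes in Pfeiffer (26.4%), against 33.0% of all genes, and in 53 in OCI-Ly7 (22.9%), against 22.9%. An unadjusted p under 0.05 was reached by 59 genes in Pfeiffer (25.5%) and by 29 in OCI-Ly7 (12.6%). The shares over all genes tested are not given here, so these counts cannot be read as an excess.

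The share called tracked the level of the genes. Among genes at a deposited log2 of 8 to 9 in the brighter line, 5 of 108 noncoding genes were called in Pfeiffer (4.63%), against 4.69% of all genes at that level. At 9 to 10 it was 5 of 65 (7.69%), against 9.79%. At 10 and above it was 13 of 58 (22.4%), against 22.5%. In OCI-Ly7 the counts were 0 of 108, 1 of 65 and 3 of 58, against 0.95%, 1.47% and 3.7% of all genes at those levels, and 7 of the 108 had an unadjusted limma p under 0.05. The standard error of a change had a median of 0.16 over the noncoding genes and 0.11 over all genes tested. The median change of the noncoding genes was -0.01 in Pfeiffer and -0.03 in OCI-Ly7, against 0.00 and 0.01 over all genes.

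By class, set against the 16.3% of all genes called in Pfeiffer, 10 of the 57 LINC genes were called there (17.5%; 3 higher, 7 lower). The others were 10 of the 120 antisense genes (8.33%; 3 higher, 7 lower), 3 of the 49 divergent transcripts (6.12%; 2 higher, 1 lower) and 0 of the 5 intronic transcripts, of which 2 had an unadjusted limma p under 0.05. In OCI-Ly7, against 2.67% of all genes, the called genes were 1 LINC gene (1.75%) and 3 antisense genes (2.5%). The difference between the changes, Pfeiffer minus OCI-Ly7, was called for 6 genes, 4 of them LINC genes and 2 antisense, which is 2.6% of the 231, against 8.79% of all genes tested. It was positive for 2 of the 6 and negative for 4, against 3.72% and 5.07% of all genes. An unadjusted p under 0.05 for that difference was reached by 44 genes (19%), with no share over all genes given here to set beside it. The changes had the same sign in both lines in 118 of the 231 genes (51.1%), and in 51.3% of all genes tested. In Pfeiffer the 5 measured B cell markers had lower means with BCL6 siRNA, and the mean of that list lay at 11.39 to 11.49 on the BCL6 siRNA arrays and at 11.95 to 12.04 on the control arrays. In OCI-Ly7 the same 5 had higher means with BCL6 siRNA, at 13.21 to 13.27 against 12.97 to 13.00. The 3 plasma cell markers had higher means with BCL6 siRNA in both lines, and PRDM1, the regulator of plasma cell differentiation, averaged 12.12 with BCL6 siRNA and 10.72 with control siRNA in Pfeiffer. There TNFRSF17 averaged 14.51 and 14.48, nearly the same, and SDC1, which was dim, 6.53 and 6.25. The part of these shifts in the noncoding changes was not tested.

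**Figure D2:**
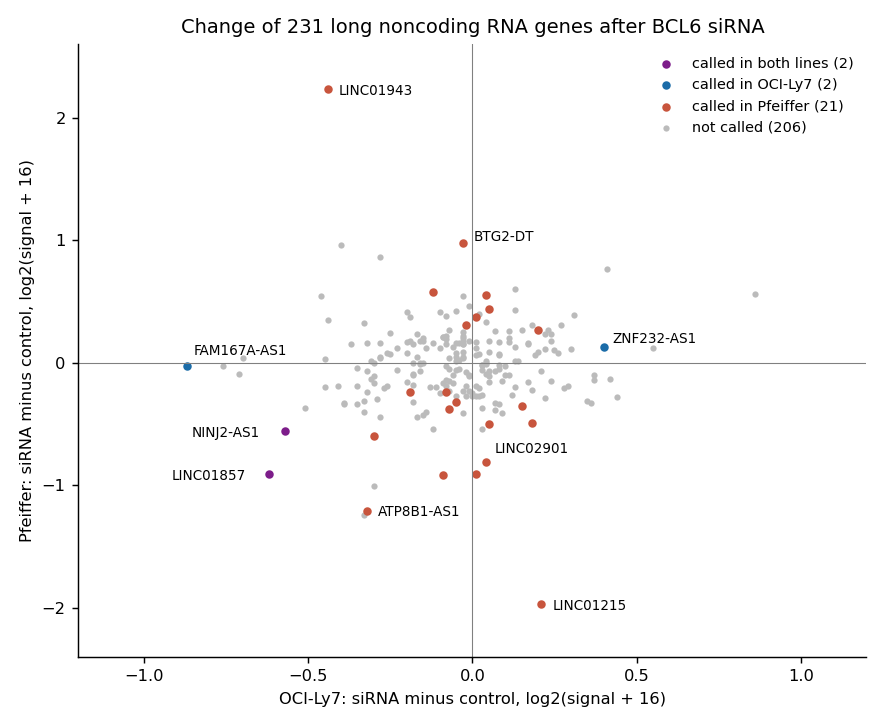
Change of the 231 long noncoding RNA genes after BCL6 siRNA, siRNA minus control on the log2(signal + 16) scale, in Pfeiffer (vertical axis) and OCI-Ly7 (horizontal axis), each the difference of 2 means of 3 arrays. The 2 genes called in both lines lie in the lower left, 21 were called in Pfeiffer alone, 2 in OCI-Ly7 alone, and those in grey in neither.

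LINC01857 and NINJ2-AS1 were called in both lines, and both fell in both. LINC01857, an intergenic RNA, had log2(signal + 16) values of 12.86, 13.10 and 12.85 in Pfeiffer with BCL6 siRNA, against 13.87, 13.80 and 13.88 with control siRNA. The OCI-Ly7 values were 8.19, 8.25 and 8.25 with BCL6 siRNA, against 9.0, 8.85 and 8.69 with control siRNA. The groups did not overlap in either line, although Pfeiffer held the RNA at a far higher signal. The change was -0.91 ± 0.08 (SE) in Pfeiffer, to 53.2% of control (limma, adjusted p = 3.35e-06), and -0.62 ± 0.08 in OCI-Ly7, to 65.2% of control (adjusted p = 0.000918). The difference of -0.29 ± 0.12 between the lines did not pass the test (adjusted p = 0.148). Its neighbouring coding genes METTL21A, a lysine methyltransferase, and CCNYL1, a cyclin Y-like protein, were not called.

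NINJ2-AS1, antisense to the adhesion gene NINJ2, had 7.88, 8.27 and 7.96 in Pfeiffer with BCL6 siRNA, against 8.59, 8.69 and 8.50 with control siRNA. OCI-Ly7 arrays gave 9.0, 9.02 and 9.06 with BCL6 siRNA, against 9.59, 9.66 and 9.55 with control siRNA. The arrays with BCL6 siRNA were lower throughout in both lines, by 0.56 ± 0.12 (SE) in Pfeiffer (limma, adjusted p = 0.00604) and by 0.57 ± 0.12 in OCI-Ly7 (adjusted p = 0.0238). A dimmer probe set of the gene gave -0.25 and -0.21 with overlapping arrays, and with the mean of both probe sets neither call held (adjusted p = 0.223 in Pfeiffer and 0.448 in OCI-Ly7). The OCI-Ly7 call was also lost without any 1 of its 6 arrays. NINJ2 was not among the genes tested.

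FAM167A-AS1 fell in OCI-Ly7, and its change differed between the lines. In Pfeiffer it had 11.10, 11.20 and 11.15 with BCL6 siRNA, against 11.19, 11.09 and 11.25 with control siRNA. Its OCI-Ly7 values were 10.45, 10.35 and 10.31 with BCL6 siRNA, against 11.21, 11.22 and 11.29 with control siRNA. The Pfeiffer groups overlapped, while the OCI-Ly7 groups stood well apart, with BCL6 siRNA at 54.8% of control. The change was -0.03 ± 0.06 (SE) in Pfeiffer (limma, adjusted p = 0.849) and -0.87 ± 0.06 in OCI-Ly7 (adjusted p = 2.87e-06), and the difference of 0.84 ± 0.09 passed the test (adjusted p = 3.7e-05). Its partner FAM167A was not called in either line, with 0.43 in Pfeiffer and 0.15 in OCI-Ly7. The next coding gene, BLK, a Src family kinase of B cells, showed the other pattern: it fell by 0.42 ± 0.08 in Pfeiffer (adjusted p = 0.00289) and differed by 0.02 ± 0.08 in OCI-Ly7 (adjusted p = 0.961).

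ZNF232-AS1 was the noncoding gene that rose in OCI-Ly7. It had 11.59, 11.47 and 11.34 with BCL6 siRNA, against 11.09, 11.08 and 11.04 with control siRNA, a change of 0.40 ± 0.07 (SE; limma, adjusted p = 0.00999). In Pfeiffer it had 11.10, 11.14 and 11.25 with BCL6 siRNA, against 10.91, 11.06 and 11.11 with control siRNA, and these groups overlapped. A second probe set gave 0.29 in OCI-Ly7 with arrays that did not overlap, but the call was lost with that probe set alone (adjusted p = 0.198) and without the first BCL6 siRNA array (adjusted p = 0.0634). The zinc finger gene ZNF232 itself was not called (0.24, adjusted p = 0.395).

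**Figure D3:**
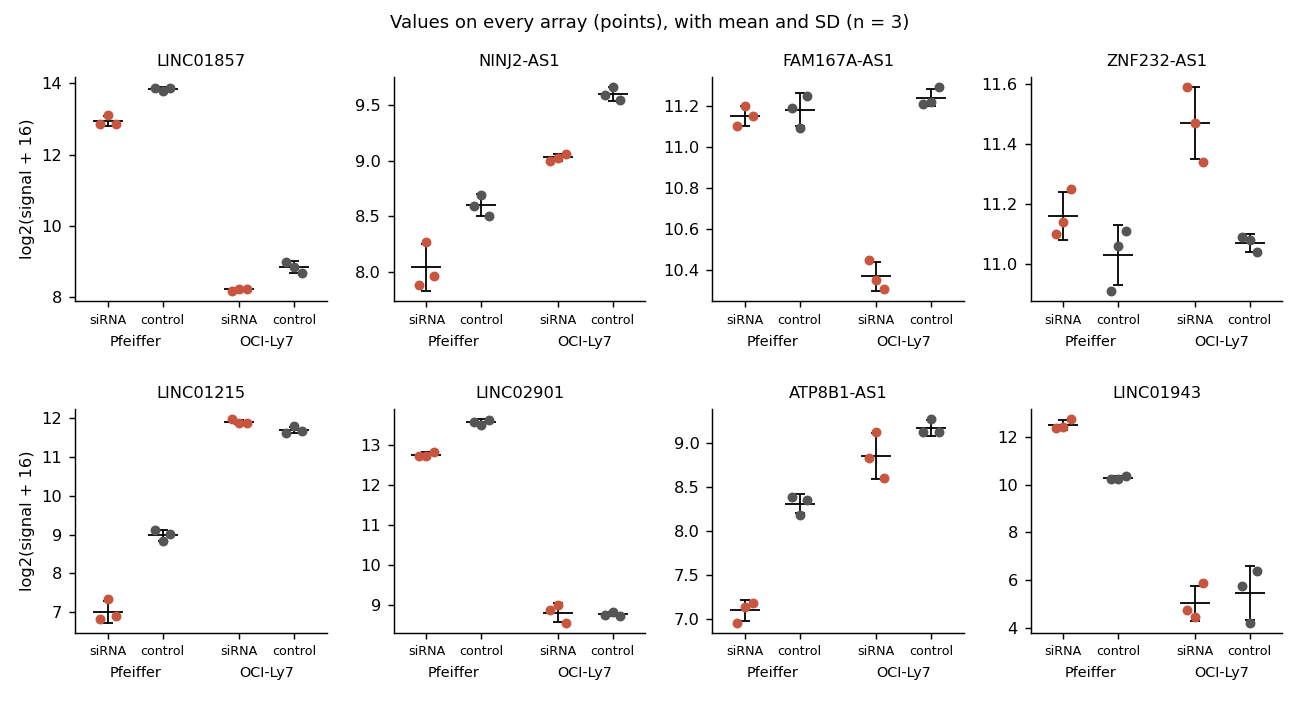
Values of 8 long noncoding RNA genes on every array as log2(signal + 16), with BCL6 siRNA in red and control siRNA in grey, Pfeiffer at the left and OCI-Ly7 at the right of each panel, and the mean and SD of 3 arrays in black. Vertical axes differ between panels and do not start at 0. LINC01857 and NINJ2-AS1 are lower with BCL6 siRNA in both lines, FAM167A-AS1 in OCI-Ly7, and LINC01215, LINC02901 and ATP8B1-AS1 in Pfeiffer, where LINC01943 is higher.

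LINC01215 fell in Pfeiffer more than any other of the 231 genes. This intergenic gene lies between CD47, the surface protein that signals to phagocytes not to engulf a cell, and IFT57, a cilium transport gene. It had 6.81, 7.33 and 6.89 in Pfeiffer with BCL6 siRNA, against 9.11, 8.83 and 9.01 with control siRNA. The OCI-Ly7 arrays read 11.98, 11.87 and 11.88 with BCL6 siRNA, against 11.63, 11.79 and 11.68 with control siRNA. The groups did not overlap in either line, but lay in opposite order. The change was -1.97 ± 0.12 (SE) in Pfeiffer, to 25.5% of control (limma, adjusted p = 5.05e-08), and 0.21 ± 0.12 in OCI-Ly7, which did not pass (adjusted p = 0.456). The difference of -2.18 ± 0.17 passed (adjusted p = 1.94e-06). CD47 was not called in either line, and IFT57 rose in OCI-Ly7 (0.29 ± 0.07, adjusted p = 0.0426) and not in Pfeiffer (0.14 ± 0.07, adjusted p = 0.205).

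LINC02901, between the cytoskeletal linker gene EZR and RSPH3, was bright in Pfeiffer and fell there. It had 12.71, 12.72 and 12.83 with BCL6 siRNA, against 13.57, 13.50 and 13.63 with control siRNA, a change of -0.81 ± 0.09 (SE) to 56.9% of control (limma, adjusted p = 2.59e-05). The OCI-Ly7 values were 8.87, 9.01 and 8.56 with BCL6 siRNA, against 8.76, 8.83 and 8.73 with control siRNA. The Pfeiffer groups were well separated and the OCI-Ly7 groups overlapped, and the difference of -0.85 ± 0.13 passed the test (adjusted p = 0.000797). Both neighbours fell with it in Pfeiffer. EZR changed by -0.35 ± 0.05 in Pfeiffer (adjusted p = 0.00049) and by 0.12 ± 0.05 in OCI-Ly7 (adjusted p = 0.307), and RSPH3 by -0.43 ± 0.13 in Pfeiffer (adjusted p = 0.0414) and by -0.20 ± 0.13 in OCI-Ly7 (adjusted p = 0.541).

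ATP8B1-AS1 fell in Pfeiffer without its partner. It had 6.96, 7.14 and 7.18 with BCL6 siRNA, against 8.39, 8.18 and 8.35 with control siRNA, a change of -1.21 ± 0.15 (SE) to 43.2% of control (limma, adjusted p = 6.89e-05). In OCI-Ly7 it had 8.83, 9.12 and 8.60 with BCL6 siRNA, against 9.12, 9.27 and 9.12 with control siRNA. There the highest BCL6 siRNA array equalled the lowest control arrays to 2 decimals, and the change of -0.32 ± 0.15 did not pass (adjusted p = 0.336). The difference of -0.89 ± 0.22 did (adjusted p = 0.0185). A second, dimmer probe set gave -0.83 in Pfeiffer, again with no overlap. ATP8B1, a phospholipid flippase of the plasma membrane, was not called in either line (0.30 ± 0.17 in Pfeiffer, adjusted p = 0.262).

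LINC01943 rose in Pfeiffer more than any other of the 231 genes. It had 12.38, 12.41 and 12.75 with BCL6 siRNA, against 10.24, 10.26 and 10.35 with control siRNA. The OCI-Ly7 values were 4.75, 4.45 and 5.86 with BCL6 siRNA, against 5.76, 4.22 and 6.40 with control siRNA. The Pfeiffer groups were far apart, at 469% of control, and the OCI-Ly7 groups overlapped close to the lowest signals. The change of 2.23 ± 0.43 (SE) in Pfeiffer was called (limma, adjusted p = 0.00232), as was the difference of 2.67 ± 0.60 (adjusted p = 0.012), but with a pseudocount of 1 neither was (adjusted p = 0.0853 and 0.174). A change in OCI-Ly7 could not be read at these signals, so the difference does not show that the lines responded differently. With Pfeiffer fitted on its own 6 arrays the SE was 0.10 and the adjusted p 2.34e-07.

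The promoter windows of these 4 genes are shown because, among the genes with a called difference between the lines, they had the largest changes in Pfeiffer. Each is the RefSeq sequence on GRCh38.p14, 5′ to 3′ on the gene's strand, from 250 bases before the annotated start to 50 after it. They are LINC01215 at chr3:108125571-108125870 (plus strand), LINC02901 at chr6:158869564-158869863 (plus strand), ATP8B1-AS1 at chr18:57630081-57630380 (plus strand) and LINC01943 at chr2:87459047-87459346 (minus strand). Capitals mark the motifs searched on both strands, which were TTCCTAGAA, a core of the BCL6 motif, TTCNNNGAA, the looser palindrome that STAT factors also bind, CACGTG, known as the E-box, GGGCGG, known as the GC box, and TATAAA, known as the TATA box.
LINC01215: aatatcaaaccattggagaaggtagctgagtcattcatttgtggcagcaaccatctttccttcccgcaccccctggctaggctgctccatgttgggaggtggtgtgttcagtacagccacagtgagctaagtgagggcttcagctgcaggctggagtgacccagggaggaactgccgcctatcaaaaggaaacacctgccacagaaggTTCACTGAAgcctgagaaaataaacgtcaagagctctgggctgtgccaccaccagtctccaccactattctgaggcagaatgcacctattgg
LINC02901: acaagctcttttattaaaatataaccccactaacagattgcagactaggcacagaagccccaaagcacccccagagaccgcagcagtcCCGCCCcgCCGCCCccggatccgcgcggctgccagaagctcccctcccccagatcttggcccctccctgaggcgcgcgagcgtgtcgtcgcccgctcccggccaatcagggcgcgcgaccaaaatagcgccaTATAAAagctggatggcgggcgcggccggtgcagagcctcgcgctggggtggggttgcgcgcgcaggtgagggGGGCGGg
ATP8B1-AS1: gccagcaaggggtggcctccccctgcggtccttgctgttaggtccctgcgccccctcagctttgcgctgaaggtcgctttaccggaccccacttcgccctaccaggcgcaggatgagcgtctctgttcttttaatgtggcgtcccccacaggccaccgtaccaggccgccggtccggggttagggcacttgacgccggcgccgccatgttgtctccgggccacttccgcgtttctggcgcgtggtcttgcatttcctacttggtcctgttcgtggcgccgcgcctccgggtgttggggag
LINC01943: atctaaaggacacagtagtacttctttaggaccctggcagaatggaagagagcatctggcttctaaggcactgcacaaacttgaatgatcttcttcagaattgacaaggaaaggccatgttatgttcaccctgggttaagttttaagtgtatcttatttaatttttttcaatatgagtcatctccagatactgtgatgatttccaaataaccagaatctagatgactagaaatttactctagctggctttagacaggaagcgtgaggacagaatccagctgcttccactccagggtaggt

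LINC01215 held TTCACTGAA, a match to TTCNNNGAA, starting 42 bases before the start. LINC02901 held TATAAA starting 30 bases before the start and GGGCGG starting 162 and 154 bases before and 43 after it, the first pair on the other strand. The windows of ATP8B1-AS1 and LINC01943 held none of these letters. Promoter windows were found for 186 of the 231 genes and were compared with all 27305 windows of the table. TTCNNNGAA, which contains every TTCCTAGAA, was in 17 of the 186 (9.14%), against 7.88% of all windows, and TTCCTAGAA in 0 of the 186, against 0.403%. GGGCGG was in 120 (64.5%), against 44.6%. CACGTG was in 11 (5.91%), against 7.43%, and TATAAA in 11 (5.91%), against 12%. The median GC content was 64.8% over the 186 windows and 58.3% over all. The 186 belong to genes chosen by signal, while the 27305 were not limited to genes with a signal on these arrays. The 2 sets are thus unlike, and these shares cannot be read as traits of noncoding genes. Among the 16 called genes with a window, LINC01215 alone held TTCNNNGAA. A match is a description of letters and not a binding site.

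Of the other LINC genes, LINC00494 fell in Pfeiffer, where it was dim. It had 6.09, 6.24 and 6.77 with BCL6 siRNA, against 7.60, 7.16 and 7.07 with control siRNA, groups that did not overlap (-0.91 ± 0.20 SE; limma, adjusted p = 0.00684). In OCI-Ly7, where it was brighter, it lay between 8.75 and 8.82 with BCL6 siRNA, against 8.72 to 8.83 with control siRNA. LINC00623 had 9.01, 9.51 and 9.50 in Pfeiffer with BCL6 siRNA, against 10.04, 9.65 and 9.81 with control siRNA. OCI-Ly7 arrays gave 10.66, 10.88 and 11.01 with BCL6 siRNA, against 10.59, 10.73 and 10.71 with control siRNA. The change was -0.49 ± 0.14 in Pfeiffer (adjusted p = 0.0212) and 0.18 in OCI-Ly7 (adjusted p = 0.6), with a difference of -0.67 ± 0.19 (adjusted p = 0.0406). The Pfeiffer call was lost without any 1 of 3 Pfeiffer arrays (adjusted p up to 0.1, change of -0.33) and without a trend in the fit. The difference lost its call without any 1 of 8 of the 12 arrays (adjusted p up to 0.102), and its probe set is of a type that can bind related transcripts.

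Among the divergent transcripts, BTG2-DT rose and MAP3K2-DT fell in Pfeiffer. BTG2-DT, which starts beside the antiproliferative p53 target BTG2, had 8.34, 8.42 and 7.99 with BCL6 siRNA, against 6.81, 7.79 and 7.22 with control siRNA. Its control arrays were widely spread but stayed below all 3 BCL6 siRNA arrays (0.98 ± 0.22 SE; limma, adjusted p = 0.00782), and in OCI-Ly7 the change was -0.03 ± 0.22. BTG2 itself was not analysed here. MAP3K2-DT had 10.53, 10.76 and 10.59 with BCL6 siRNA, against 10.98, 11.03 and 11.01 with control siRNA, a fall of 0.38 ± 0.07 (adjusted p = 0.00227). In OCI-Ly7 its change was -0.07 ± 0.07, and MAP3K2, a kinase of the MAP kinase cascades, differed by -0.05 ± 0.06 in Pfeiffer (adjusted p = 0.686).

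Among the antisense genes called in Pfeiffer, FUT8-AS1 fell together with its partner. It had 8.95, 8.97 and 8.89 with BCL6 siRNA, against 9.42, 9.59 and 9.61 with control siRNA (-0.60 ± 0.11 SE; limma, adjusted p = 0.00231). FUT8, the enzyme that adds core fucose to N-glycans, had 12.36, 12.28 and 12.34 with BCL6 siRNA, against 12.52, 12.46 and 12.74 with control siRNA (-0.24 ± 0.07, adjusted p = 0.0192). Neither pair of groups overlapped. In OCI-Ly7 FUT8-AS1 had 8.24, 8.19 and 8.33 with BCL6 siRNA, against 8.64, 8.61 and 8.41 with control siRNA, and its change of -0.30 did not pass (adjusted p = 0.223). With the mean of its probe sets the Pfeiffer call was lost (adjusted p = 0.138), although the second probe set alone gave -0.44 with no overlap.

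SBF2-AS1 rose in Pfeiffer, with 10.84, 11.08 and 10.99 with BCL6 siRNA, against 10.63, 10.52 and 10.44 with control siRNA (0.44 ± 0.09 SE; limma, adjusted p = 0.005). Its partner SBF2, a myotubularin-related protein, gave -0.48 ± 0.17 and was not called (adjusted p = 0.0685). EPB41L4A-AS1 fell in Pfeiffer, with 12.60, 12.70 and 12.70 with BCL6 siRNA, against 12.87, 12.98 and 12.88 with control siRNA (-0.24 ± 0.06, adjusted p = 0.0105). Its OCI-Ly7 values were 11.89, 11.90 and 11.91 with BCL6 siRNA, against 12.12, 11.98 and 12.19 with control siRNA, where the groups did not overlap but the change of -0.19 did not pass (adjusted p = 0.107). Its second probe set gave -0.59 in Pfeiffer, and the call was lost without the second Pfeiffer control array (adjusted p = 0.0503). The SBF2-AS1 and EPB41L4A-AS1 calls were both lost with the mean of each gene's probe sets (adjusted p = 0.0525 and 0.0722).

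The other 10 genes called in Pfeiffer are named after their values were seen. On their brightest probe sets GARS1-DT, NNT-AS1, LINC00115, LINC01128 and OTUD6B-AS1 were higher, by 0.27 to 0.58 (limma, adjusted p from 0.0163 to 0.0426). LINC00869, TMEM147-AS1, ST20-AS1, LINC00847 and C10orf95-AS1 changed by -0.92 to -0.24 (adjusted p from 0.0149 to 0.0463). All of them but LINC00869 lost the call without at least 1 array. LINC00869 lost it when Pfeiffer was fitted on its own arrays (adjusted p = 0.0843) and with the mean of its probe sets, where its change was -0.15 (adjusted p = 0.737), and its other probe sets gave 0.02 and 0.44. LINC01128 has another probe set that was lower with no overlap (-0.67), and the second probe set of OTUD6B-AS1 gave -0.01. GARS1-DT is read by 8 probe sets that disagreed: 1 other was higher with BCL6 siRNA with no overlap (0.28), while 2 were lower with no overlap (-0.53 and -1.24). The mean of its probe sets gave -0.15, so its direction is not settled.

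**Figure D4:**
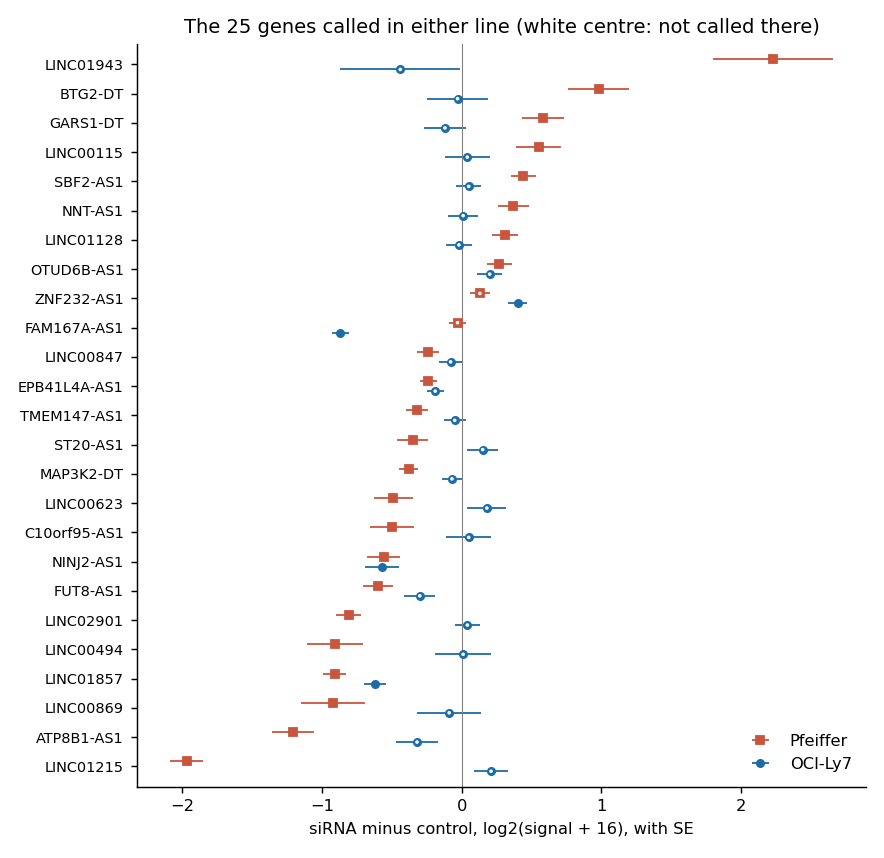
Change after BCL6 siRNA with its SE, siRNA minus control on the log2(signal + 16) scale, of the 25 genes called in either line, with Pfeiffer as red squares and OCI-Ly7 as blue circles, and a white centre where the change was not called. From LINC01943 (2.23) to LINC01215 (-1.97) in Pfeiffer, the OCI-Ly7 values of most of these genes stay near 0, and the filled circles are those of LINC01857, NINJ2-AS1, FAM167A-AS1 and ZNF232-AS1.

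How strongly a gene's spread in the other line entered its test could be seen in some of the genes with the widest gaps in level. MAP3K20-AS1 had 10.89, 11.06 and 10.93 in Pfeiffer with BCL6 siRNA, against 11.32, 11.40 and 11.46 with control siRNA. LINC00525 had 11.02, 11.05 and 10.98 with BCL6 siRNA, against 11.47, 11.32 and 11.28 with control siRNA. LINC00954 had 8.91, 9.16 and 8.95 with BCL6 siRNA, against 9.49, 9.56 and 9.61 with control siRNA. All 3 were lower with no overlap in Pfeiffer, yet none was called in the fit over 12 arrays (limma, adjusted p = 0.547, 0.456 and 0.163), to which their dim and scattered OCI-Ly7 signals contributed. With Pfeiffer fitted on its own 6 arrays all 3 were called (adjusted p = 0.00306, 0.0103 and 0.00788). Likewise DDX11-AS1 had 10.81, 10.87 and 11.02 in OCI-Ly7 with BCL6 siRNA, against 11.50, 11.45 and 11.29 with control siRNA, and its adjusted p was 0.105 over 12 arrays and 0.00352 over the 6 of OCI-Ly7. The other genes with the widest gaps gained no call. LINC01943 was called in Pfeiffer either way, and ZNF793-AS1, ACTR3-AS1, SLC8A1-AS1, DBH-AS1 and LINC00324 in neither fit. Yet SLC8A1-AS1, DBH-AS1 and LINC00324 also had no overlap in OCI-Ly7, with changes of 0.41, 0.44 and -0.28. Fitted on its own arrays, Pfeiffer again gave 23 called noncoding genes, of which 18 were shared with the fit over 12 arrays. OCI-Ly7 gave 6, of which 4 were shared. The shares over all genes in these fits are not given here.

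The genes that the antisense, intronic and divergent transcripts are named after were set beside them. Of 174 such transcripts, 139 had a partner that was tested. The partner was called in 25 pairs in Pfeiffer (18%; 13 higher, 12 lower), against 16.3% of all genes, and in 3 in OCI-Ly7 (2.16%; 2 higher, 1 lower), against 2.67%. Transcript and partner moved with the same sign in 67 of the 139 pairs in Pfeiffer (48.2%) and in 71 in OCI-Ly7 (51.1%). Both were called in 4 of the 9 called pairs in Pfeiffer and in 0 of 2 in OCI-Ly7. FUT8-AS1 and ST20-AS1 fell with their partners. GARS1, the glycyl-tRNA synthetase, rose by 0.22 ± 0.06 (limma, adjusted p = 0.0304), but the direction of GARS1-DT is not settled, and ST20 changed by -0.31 ± 0.08 (adjusted p = 0.0203). TMEM147-AS1 changed by -0.32 ± 0.08 while TMEM147, an endoplasmic reticulum membrane protein, rose by 0.29 ± 0.07 (adjusted p = 0.0123). The orientation of the probes was not given in the sources used here, so signals of transcripts that overlap on opposite strands cannot be told apart.

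Neighbours in the genome were set beside the noncoding genes in the same way. Over the nearest coding genes to either side, 279 pairs could be tested. The neighbour was called in 53 in Pfeiffer (19%), against 16.8% around all genes tested, and in 15 in OCI-Ly7 (5.38%), against 2.96%. The noncoding gene and its neighbour had the same sign in 137 of the 279 pairs in Pfeiffer (49.1%), against 51.8% around all genes. Called neighbours of genes described above included MAX, the partner protein of MYC, beside FUT8-AS1 (-0.37 ± 0.07 in Pfeiffer; limma, adjusted p = 0.00148) and NREP beside EPB41L4A-AS1 (0.29 ± 0.07 in OCI-Ly7, adjusted p = 0.0394). Among the genes named after their values were seen, BCL2A1, an inhibitor of apoptosis beside ST20-AS1, changed by -0.73 ± 0.09 in Pfeiffer (adjusted p = 3.91e-05). PAIP1, a translation factor beside NNT-AS1, rose by 0.65 ± 0.07 in Pfeiffer (adjusted p = 7.88e-06).

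Many of the noncoding genes had an annotated start near that of a coding gene on the opposite strand. An opposite-strand coding gene started within 1000 bases in 104 of the 186 genes with a promoter window (55.9%), against 19.2% of all genes tested. The share was 66.3% in the antisense class, 9.76% in the LINC class and 82.5% among the divergent transcripts, whose suffix itself denotes that position. Of 91 such pairs in which both genes were tested, the changes had the same sign in 37 in Pfeiffer (40.7%) and in 48 in OCI-Ly7 (52.7%). Over 1274 such pairs around all genes tested these shares were 50.2% and 51.2%. The coding gene of the 91 pairs was called in 19 in Pfeiffer (20.9%), against 14.7% around all genes, and in 4 in OCI-Ly7 (4.4%), against 1.81%. The noncoding gene was called in 2 in Pfeiffer, with both genes called in 1, where 16.3% of all genes tested were called.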

How the data were processed

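Expression of 12 samples was measured on Affymetrix U133 Plus 2.0 arrays. The values are log2 signals that the authors deposited, made with MAS5 and affy per the submitters' processing notes, and back-transformed signals had the same trimmed mean on every array. MAS5 scales each array by its own trimmed mean and subtracts mismatch signal, so low values scatter widely. No detection calls were used here, and precision is limited by having 3 arrays per group. Of 54675 probe sets, 41091 had 1 symbol, 1801 several and 11721 none in the platform annotation, and 62 were controls. 41037 were matched to RefSeq by gene ID.

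Signals were back-transformed, taken as log2(signal + 16) and tested with limma 3.58.1 (lmFit, eBayes with a trend, two-sided) in R 4.3.3, with 4 group means and 8 residual degrees of freedom. Genes in the brighter 50% by the brighter line's mean entered. The fit was tested on simulated data. Samples were grouped by their titles. Same-numbered samples did not deviate together (correlations from -0.066 to 0.083), so no pairing was used.

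Genes named with values were the called genes of lowest p (up to 12 per contrast), the 6 brightest per line, the 5 with the widest level gap to either side, those at the threshold, and partners and called neighbours. Genes outside that rule are marked as named after their values were seen. Members and lists were chosen with earlier results of these data known. Alternatives covered pseudocount, normalization, filter, probe sets, trend, array weights, replicate block, each line alone, each array left out and the level threshold.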

Additional observations from a re-analysis of the deposited data

Results flagged for a closer look

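For 6 noncoding genes the test of the difference itself, between the lines' changes after BCL6 siRNA, passed (Pfeiffer minus OCI-Ly7; limma, adjusted p under 0.05). The difference was -2.18 for LINC01215, -0.89 for ATP8B1-AS1, -0.85 for LINC02901 and -0.67 for LINC00623, which were lower in Pfeiffer relative to OCI-Ly7. It was 2.67 for LINC01943 and 0.84 for FAM167A-AS1. LINC01215, ATP8B1-AS1, LINC02901 and FAM167A-AS1 kept this call in every alternative that could be fitted. FAM167A-AS1 has 1 probe set, which ends in _a_at, so it could not be fitted without such probe sets. LINC01943 lost it with a pseudocount of 1 (adjusted p = 0.174), and its OCI-Ly7 signals of 4.22 to 6.40 were too dim to read a change there. The call was also lost for LINC00623 in 12 of 21 alternatives. BCL6 itself fell to 51.3% of control in Pfeiffer and to 74.6% in OCI-Ly7, a difference that passed too (-0.54 ± 0.11 SE; limma, adjusted p = 0.00496). The part of this unequal knockdown in the 6 differences was not tested, nor was that of the kind of control named in the Pfeiffer titles.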

How the results depend on the processing

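Of the called genes, 2 of 4 in OCI-Ly7, 7 of 23 in Pfeiffer and 4 of 6 for the difference kept their call in every alternative that could be fitted for them. FAM167A-AS1 and MAP3K2-DT each have 1 probe set, ending in _a_at and _s_at, and could not be fitted without such probe sets. The OCI-Ly7 count of 4 became 2 without probe sets ending in _s_at, _x_at or _a_at (202 of the 231 genes left), where fewer genes entered. There FAM167A-AS1 was left out and ZNF232-AS1 lost its call. Leaving out 1 array gave 2 to 5, the lowest without the first OCI-Ly7 BCL6 siRNA array. The Pfeiffer count of 23 became 11 with the brightest 25% of genes (38 of the 231 left, so fewer were tested) and 15 when all probe sets of a gene were averaged, and leaving out 1 array gave 17 to 24. The count of 6 for the difference became 13 with array weights, and leaving out 1 array gave 5 to 15, the highest without the third Pfeiffer BCL6 siRNA array, with all 6 shared. The cause was not tested for the probe set mean, the weights or the left-out arrays. No counts over all genes are given here for the difference with array weights or with 1 array left out. Those counts therefore cannot be read as particular to the noncoding genes. The same holds for Pfeiffer with the brightest 25% or 1 array left out, and for both with the replicate number as a block. GARS1-DT reversed to -0.15 in Pfeiffer with the mean of its probe sets, which disagree. With the replicate number as a block the counts were 18 in Pfeiffer, 3 in OCI-Ly7 and 5 for the difference, and 3 of 12 arrays were closest to their own number. A level threshold of 9 left 123 genes with 18 called in Pfeiffer, 4 in OCI-Ly7 and 5 for the difference. Of all genes tested at 9 to 10, 9.79% were called in Pfeiffer and 1.47% in OCI-Ly7. At 10 and above these shares were 22.5% and 3.7%, and no such share is given for the difference. Over all genes, the OCI-Ly7 count of 264 was 168 with no filter, 133 with the probe set mean and 165 without the probe sets of those endings. It was 143 without a trend, 400 with array weights, 138 with the block and 101 without the first BCL6 siRNA array. The Pfeiffer count of 1609 was 1027 with the probe set mean. The difference count of 869 was 534 with it and 558 without the probe sets of those endings.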

Other observations

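Long noncoding RNA genes whose symbols fall outside the rule, such as MALAT1, NORAD and the small nucleolar RNA hosts, were looked at as a list of 46. Of these, 25 had a probe set with exactly 1 symbol and 15 were tested. In Pfeiffer 1 was called higher and 0 lower (median change -0.04), where 16.3% of all genes tested were called, and in OCI-Ly7 none was called (median 0.03), where 2.67% were. An unadjusted limma p under 0.05 was reached by 3 in Pfeiffer and 0 in OCI-Ly7. The called gene was MALAT1, an abundant nuclear RNA of nuclear speckles, with log2(signal + 16) values of 13.05, 13.08 and 12.62 in Pfeiffer with BCL6 siRNA, against 12.49, 12.53 and 12.63 with control siRNA (0.37 ± 0.10 SE; limma, adjusted p = 0.0183). These groups overlapped, since the third BCL6 siRNA array lay at the level of the control arrays. MALAT1 is read by 12 probe sets, and these values are of the brightest alone, which ends in _s_at. Values of the others are not given here.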
